A study of Callithrix jacchus with 4 samples.

Results

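Genes that mark the blood-brain barrier were followed through 4 single-nuclei RNA sequencing (snRNAseq) libraries of marmoset primary visual cortex (V1). The 5 of them studied here, SLC2A1, MFSD2A, ABCB1, ABCG2 and CLDN5, were chosen by name as barrier transporters and a junction gene. The choice was made with earlier results of these data known. The injured table listed 32323 genes and all 5 members, and the control table listed 16383 genes and 4 members, without CLDN5. The injured cohort was 3 adult marmosets with an endothelin-1 (ET-1) stroke in V1, sampled after 7 days with the core and penumbra included, in 1 library each (injured replicates 1, 2 and 3). The control cohort was V1 of 3 non-lesioned adult marmosets, pooled into 1 library, so that the spread between control animals could not be measured. Unique molecular identifiers (UMIs), which count captured RNA molecules, were added up within each library and annotated cell type. A level is given in CPM, the UMIs of a member for every 1000000 UMIs of those nuclei.

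The blood-brain barrier is formed by endothelial cells of brain capillaries, which are sealed by tight junctions, carry out little transcytosis and move nutrients and drugs through dedicated transporters. SLC2A1 (GLUT1) carries glucose from blood to brain. MFSD2A carries lysophosphatidylcholine lipids and restrains vesicle transport across the endothelium. ABCB1 (P-glycoprotein) and ABCG2 (breast cancer resistance protein) pump drugs and other lipophilic compounds back into the blood, and CLDN5 (claudin-5) is the principal claudin of endothelial tight junctions.

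The 4 libraries held 7500 to 12527 nuclei. Median depth was 3531 to 4504.5 UMIs per nucleus in the injured libraries and 2117 in the control library, and any pair of libraries shared 15 to 27 barcodes. The authors' endothelial annotation (Endo) held 1021, 1735 and 1688 nuclei in the injured replicates and 181 nuclei in the control library. These were 13.6%, 13.9% and 17.7% of the injured libraries and 2.10% of the control library (95% Clopper-Pearson interval 1.81 to 2.43%). Nuclei of the 2 cohorts were isolated by different protocols, at different facilities and with different sequencers, so that these steps and injury cannot be told apart.

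Checked against marker genes, the Endo label covered more than endothelial nuclei, and it did so unequally in the cohorts. In the injured libraries, clusters 14 and 11 of the deposited annotation were endothelial-like, with ADGRL4, VWF, ADGRF5 and FLT1 among their leading genes. They held 32.9%, 39.5% and 42.2% of Endo nuclei. RGS5, a pericyte gene, was also among the leading genes of cluster 14. Injured cluster 20 was fibroblast-like (COL3A1, DCN, COL1A1) and injured cluster 19, with 2005 nuclei and HBB and NEFL leading, had no endothelial marker among its leading genes and was left without a name. In cluster 19, excitatory neuron markers summed to 5767 to 6103 CPM and endothelial markers to 296 to 318 CPM, against 798 to 891 CPM of the neuron markers in cluster 14. In the control library, 155 of 181 Endo nuclei (85.6%) lay in cluster 15, which was fibroblast-like with SLC6A13, DCN and COL1A2 leading and KDR also present. The other 26 nuclei (14.4%, 95% Clopper-Pearson interval 9.60 to 20.3%) lay in the endothelial-like cluster 22, led by PLAT, LEF1, VWF and FLT1. Fibroblast markers summed to 2226 to 3967 CPM in injured Endo and 11710.2 CPM in control Endo, and endothelial markers without the members to 4625 to 5986 CPM and 1891 CPM. Over the endothelial-like clusters, the endothelial markers summed to 9341 to 10459 CPM in cluster 14, 6667 to 13076 CPM in cluster 11, on 8 to 58 nuclei per library, and 10881.7 CPM in cluster 22. The 3 endothelial markers of the study alone, which include the member SLC2A1, summed to 6354 to 7037 CPM in cluster 14. Their sums were 3773 to 8151 CPM in cluster 11 and 4858 CPM in cluster 22. All 5 pericyte and 4 smooth muscle markers were at 0 UMIs in cluster 22, against 1305 to 1963 CPM of pericyte markers in cluster 14.

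**Figure D1:**
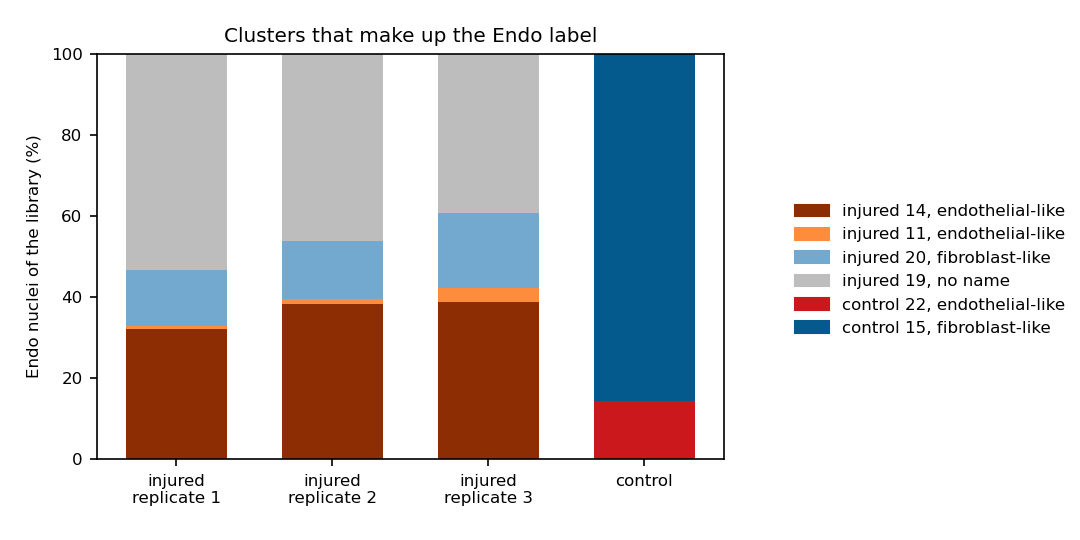
Makeup of the Endo label in each library, as the percentage of Endo nuclei in each deposited cluster (stacked bars, 1 bar per library). Endothelial-like clusters took 32.9% to 42.2% of Endo nuclei in the injured libraries and 14.4% in the control library, where the fibroblast-like cluster 15 held 85.6%.

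The members' own UMIs followed the endothelial-like clusters. These clusters held 97.9% of the SLC2A1 UMIs of injured Endo nuclei, 98.0% of MFSD2A, 96.9% of ABCB1, 98.1% of ABCG2 and 98.7% of CLDN5, from 52.8% of all Endo UMIs. In the control library, the 26 nuclei of cluster 22 held 27 of 29 SLC2A1 UMIs, 4 of 4 MFSD2A UMIs, 46 of 58 ABCB1 UMIs and 28 of 32 ABCG2 UMIs, from 10.1% of Endo UMIs. Members were among the genes with the highest fold over other nuclei in these clusters, ABCG2 at rank 1 and MFSD2A at rank 10 in cluster 22, and CLDN5 at rank 1 in cluster 14. Because the clusters were built from these nuclei and genes, and SLC2A1 was one of the authors' own markers, this is a description and was not tested.

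Across the 7 annotated cell types, all 5 members were highest in Endo in every injured library, and the 4 members listed for the control were highest in Endo there too. By injured mean, oligodendrocytes (Oligo) came second for SLC2A1 and CLDN5, astrocytes (Astro) for MFSD2A, excitatory neurons (ExN) for ABCB1 and microglia for ABCG2. The other types were inhibitory neurons (InN) and oligodendrocyte precursors (OPC).

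**Figure D2:**
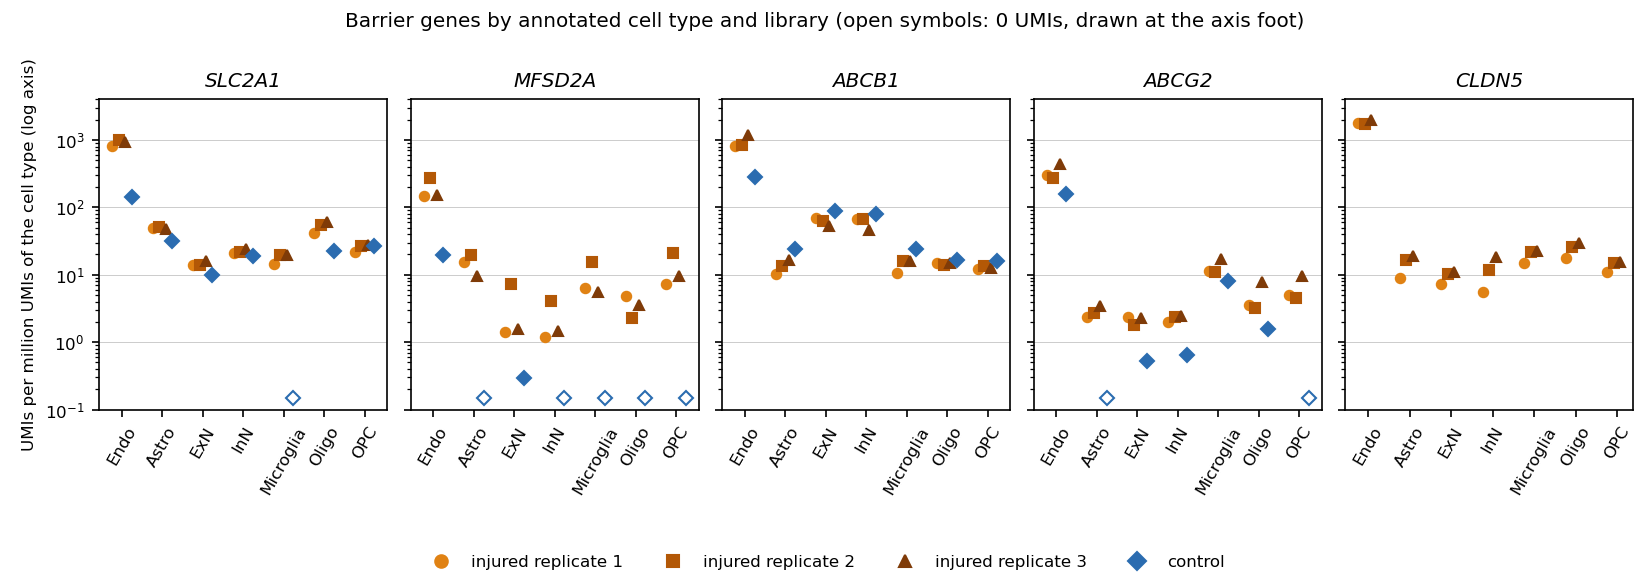
Level of each member in CPM (log axis) by annotated cell type, with 1 symbol per library; open symbols at the foot stand for 0 UMIs, and CLDN5 has no control value. SLC2A1 in injured Endo lay at 823 to 1014 CPM and in no other type above 60.1 CPM, while ABCB1 had a second, lower level in both neuron types of every library.

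SLC2A1 in Endo was at 823, 1014 and 939 CPM in injured replicates 1, 2 and 3 and at 142 CPM in the control library (exact 95% Poisson interval 95.2 to 204). Every injured library was above the control interval. Oligodendrocytes came second with 41.7, 55.3 and 60.1 CPM (control 22.7 CPM) and astrocytes next with 49.1, 51.6 and 48.5 CPM (control 31.2 CPM), and their injured ranges overlapped. Excitatory neurons were lowest, at 13.8 to 15.8 CPM in the injured libraries and 9.95 CPM in the control library. In control microglia SLC2A1 had 0 UMIs, where 3 UMIs would be 24.1 CPM, above the injured 14.4 to 19.5 CPM, so no difference was detectable at this depth.

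MFSD2A in Endo was at 147, 269.9 and 151 CPM in the injured replicates and at 19.6 CPM in the control library, from 4 UMIs (exact 95% Poisson interval 5.34 to 50.2 CPM). Injured replicate 2 stood above the other injured animals, whose counting intervals (132 to 163 and 140.02 to 163 CPM) lay below its own (254 to 286 CPM). Replicate 2 was also the highest injured library in 5 of the 6 other types, oligodendrocytes excepted, with 7.21 CPM in excitatory neurons against 1.42 and 1.59 CPM. In the other types the injured means ran from 2.24 CPM in inhibitory neurons to 14.96 CPM in astrocytes. The control library had 5 UMIs of MFSD2A in excitatory neurons and 0 in the 5 remaining types. Against a floor of 3 UMIs in the control library, the injured mean was at least 4.32-fold higher in astrocytes, 2.30-fold in inhibitory neurons and 1.52-fold in oligodendrocytes, and in microglia and OPC it was below the floor. The limit for inhibitory neurons rested on replicate 2, at 4.03 CPM against 1.201 and 1.49 CPM, and was 1.38-fold without it.

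ABCB1 in Endo was at 825, 840.3 and 1189 CPM in the injured replicates and 284 CPM in the control library (exact 95% Poisson interval 216 to 367), the injured libraries all being above the interval. Neurons held the next level, with 68.9, 63.0 and 53.2 CPM in injured excitatory neurons and 88.4 CPM in control ones, and 67.2, 66.3 and 46.8 CPM in injured inhibitory neurons and 80.4 CPM in control ones. In both neuron types the control library was above all 3 injured libraries. A UMI of ABCB1 was seen in 26.0% to 31.7% of injured and 22.8% of control excitatory neurons, whose median depths were 5378 to 7077 and 2678 UMIs. At 500 UMIs per nucleus these shares were 2.72% to 3.29% and 4.24%. CLDN5, which neurons should lack, was seen in 5.05% to 6.70% of the same injured neurons and in 0.484% to 0.526% at 500 UMIs. In the RefSeq annotation of another marmoset assembly (calJac240_pri), ABCB1 overlaps 1 further locus and ABCG2 overlaps 4, and how reads from such loci were assigned here was not tested.

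ABCG2 in Endo was at 307, 269.9 and 434 CPM in the injured replicates and 157 CPM in the control library (exact 95% Poisson interval 107 to 221). Injured replicate 3 was highest, as it was for ABCB1. Microglia were second, at 10.9 to 16.9 CPM in the injured libraries, above the injured ranges of the other types, and at 8.03 CPM in the control library from 1 UMI. In astrocytes and both neuron types the injured means were 2.14 to 2.82 CPM.

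CLDN5 in Endo was at 1770.1, 1719.7 and 1964 CPM in the injured replicates, and at 24.1 CPM or less on average in every other type. Ratios of UMIs to those of CLDN5 set the members side by side within each type. Pooled over injured libraries, SLC2A1 per CLDN5 was 0.515 in Endo, 3.13 in astrocytes and 2.19 in oligodendrocytes, and ABCB1 per CLDN5 was 0.534 in Endo and 6.14 in excitatory neurons. MFSD2A per CLDN5 was 0.107 in Endo, 0.908 in astrocytes and 0.877 in OPC. ABCG2 per CLDN5 was 0.188 in Endo and 0.184, 0.209, 0.184 and 0.193 in astrocytes, excitatory neurons, inhibitory neurons and oligodendrocytes, with 0.479 in OPC and 0.682 in microglia. By library, the ABCG2 ratio was above the Endo range of 0.157 to 0.221 in all 3 injured libraries in microglia (0.764, 0.506 and 0.750). Microglia held 136, 78 and 135 ABCG2 UMIs. In OPC the ratio was above that range too (0.444, 0.304 and 0.625), but on 8, 7 and 20 ABCG2 UMIs. In the other 4 types it ran from 0.125 to 0.357, on 5 to 45 ABCG2 UMIs a library. No CLDN5 value was available for the control library, where its row was not listed. At the injured level of 3416 CPM, the 20585 UMIs of control cluster 22 would hold 70.3 CLDN5 UMIs. Of the 31 genes with at least 1000 CPM in injured Endo, 2 were not listed for the control.

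The first comparison between cohorts asked whether barrier transporters differed in level after stroke, over all Endo nuclei as annotated. All 4 members listed in both tables were higher in every injured library than in the control library. SLC2A1 and ABCB1 passed the test and MFSD2A and ABCG2 did not. By edgeR's quasi-likelihood test with Benjamini-Hochberg adjustment, SLC2A1 rose by a log2 fold change of 2.84 (SE 0.32, adjusted p = 0.000954) and ABCB1 by 1.88 (SE 0.33, adjusted p = 0.00647). MFSD2A had a log2 fold change of 3.41 (SE 0.75, adjusted p = 0.0156) and ABCG2 of 1.24 (SE 0.36, adjusted p = 0.0450). Genes were called at an adjusted p below 0.01 when the fold change, as a natural log, was beyond 0.25 in size and 10% of nuclei in either cohort held a UMI. Of 13205 genes tested, 816 (6.18%) were called, 553 (4.19%) of them higher and 263 (1.99%) lower in injured, so that 2 of 4 members is to be read against that share. The fit gave the lone control library the spread seen between injured ones. Under the same limits DESeq2, which called 5.18% of genes, called MFSD2A as well (adjusted p = 0.000925), and ABCB1 lost its call without TMM factors (adjusted p = 0.0102), at 1000 UMIs per nucleus (0.0212) and in nuclei with at most 2500 genes (0.0181). At 1000 UMIs per nucleus, which 85 control nuclei reached, the log2 fold changes were 4.06 for SLC2A1 and 2.54 for ABCG2. Of these 85 nuclei 4 lay in the endothelial-like cluster 22, against 26 of all 181 control Endo nuclei.

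The same comparison among endothelial-led nuclei gave smaller log2 fold changes, and none of the 4 members was called. Nuclei were kept when they had more UMIs of 15 endothelial markers, members left out, than of 16 pericyte, smooth muscle and fibroblast markers, which left 392, 751 and 727 injured nuclei and 27 control nuclei with 21667 UMIs. Neuron markers played no part in this choice, and excitatory neuron markers summed to 1411 to 1799 CPM in the injured nuclei kept, against 796 to 972 CPM in the injured endothelial-like clusters and 1246 CPM in the control nuclei kept. Pericyte markers summed to 917 to 1327 CPM and smooth muscle markers to 123 to 168 CPM in the injured nuclei kept. Both were at 0 UMIs in the control nuclei kept, and what this meant for the member levels was not tested. Of the nuclei kept, 16.8% to 23.0% of injured and 3.70% of control nuclei held no UMI of the 4 shared members, and the part of neuron-like nuclei in the values was not tested. SLC2A1 was at 1570.4, 1772 and 1638 CPM in the injured replicates and 1246 CPM in the control library, and ABCB1 at 1624, 1457 and 2081 against 2123 CPM. MFSD2A was at 283, 478 and 269 CPM against 185 CPM, and ABCG2 at 599, 479 and 769.97 against 1292 CPM. SLC2A1 and MFSD2A thus lay above the control value in 3 of 3 animals, and ABCB1 and ABCG2 below it in 3 of 3. By edgeR's quasi-likelihood test the log2 fold changes with TMM factors were 1.15 for SLC2A1 (adjusted p = 0.188), 1.63 for MFSD2A (0.399), 0.43 for ABCB1 (0.616) and -0.34 for ABCG2 (0.680). Of the 4, 1 (SLC2A1) had an unadjusted p under 0.05, as did 13.2% of all genes, and DESeq2, with 0.104% of genes called, also called no member. Only 3 of 11534 genes (0.026%) were called in these nuclei, so a miss here is not evidence of equal levels.

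Scaling moved these values. TMM factors added 0.70 to 0.71 to the log2 fold changes of the 4 members in endothelial-led nuclei, and without them they were 0.44 (SLC2A1), 0.92 (MFSD2A), -0.28 (ABCB1, a change of direction) and -1.04 (ABCG2), with 0.0173% of genes and no member called. As ratios of pooled CPM, injured over control, they were 1.35 for SLC2A1 (exact 95% interval for counting error 0.925 to 2.04), 1.92 for MFSD2A (0.749 to 7.05), 0.821 for ABCB1 (0.615 to 1.12) and 0.480 for ABCG2 (0.332 to 0.724). The ABCG2 interval excludes equal CPM, but it covers counting error in 1 pooled control library and not the spread between control animals. In the endothelial-like clusters themselves, an alternative added after the makeup was seen, the log2 fold changes with TMM factors were 1.18, 1.65, 0.43 and -0.33, with 0.0267% of genes and no member called.

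**Figure D3:**
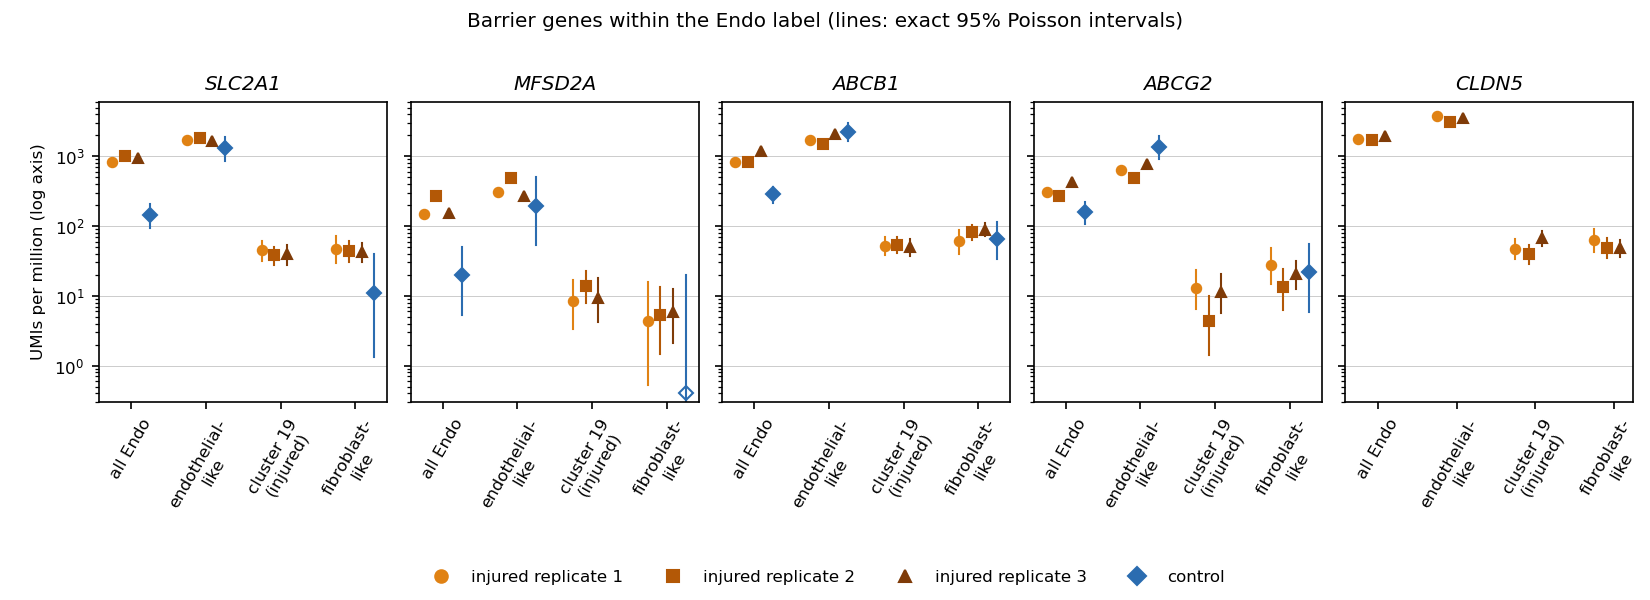
Level of each member in CPM (log axis) for all Endo nuclei, endothelial-like clusters (injured 11 and 14, control 22), the unnamed injured cluster 19 and fibroblast-like clusters (injured 20, control 15), with 1 symbol per library and exact 95% Poisson intervals as lines. The open symbol stands for 0 UMIs. SLC2A1 in the control library was at 142 CPM over all Endo and at 1312 CPM in its endothelial-like cluster, next to injured values of 1669.8 to 1836 CPM.

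**Figure D4:**
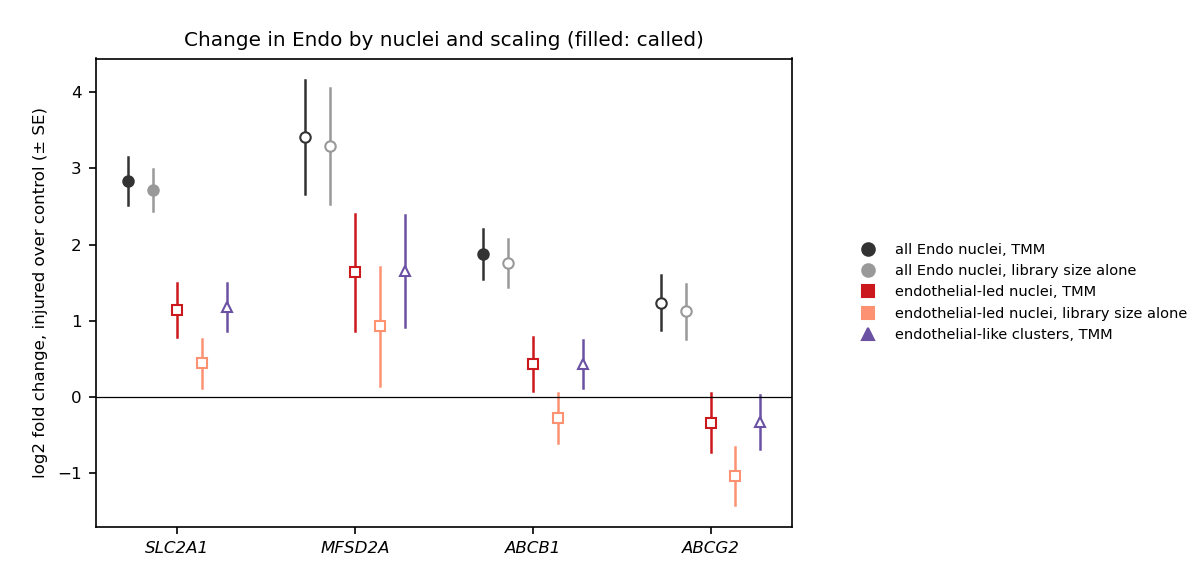
Log2 fold change, injured over control, of 4 members in Endo (symbols, with SE as lines) for 3 choices of nuclei and 2 scalings; filled symbols were called. With TMM factors, SLC2A1 was at 2.84 over all Endo nuclei and 1.15 in endothelial-led nuclei, and ABCG2 at 1.24 and -0.34.

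Outside these nuclei the members were low in both cohorts. In the fibroblast-like clusters SLC2A1 was at 47.5, 43.6 and 42.5 CPM in the injured replicates and 10.9 CPM in the control library, from 2 UMIs. ABCB1 was at 60.4, 81.9 and 88.9 CPM there and 65.4 CPM in the control library, and MFSD2A had 0 control UMIs and at most 5.80 CPM in an injured library. No member was called between these clusters, as against 0.111% of genes. Cluster 19 had 37.9 to 45.01 CPM of SLC2A1 and 39.6 to 67.5 CPM of CLDN5, near the level of the astrocytes for SLC2A1.

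Shares of nuclei with a UMI depend on depth, so they were also taken at 500 UMIs per nucleus, which every Endo nucleus reached. Unthinned, SLC2A1 was seen in 34.1%, 38.2% and 39.6% of injured and 9.94% of control Endo nuclei, with MFSD2A in 14.8%, 23.5% and 19.4% against 2.21%. ABCB1 was seen in 32.2%, 36.3% and 40.3% against 13.8%, ABCG2 in 23.2%, 23.8% and 30.5% against 9.94%, and CLDN5 in 35.6%, 39.0% and 44.1% of injured nuclei. For all 4 members with a control value the injured shares were above the control one.

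At equal depth the gap between cohorts depended on the depth chosen. Over all Endo nuclei at 500 UMIs, SLC2A1 was seen in 20.4% to 22.4% of injured and 7.73% of control nuclei (95% Clopper-Pearson interval 4.29 to 12.6%), with no overlap of intervals, while ABCG2 was seen in 7.84% to 12.9% against 7.18% (3.88 to 11.97%), with overlap. These intervals cover counting error within a library and not the spread between control animals, so their overlap or lack of it is a description. At 1000 UMIs, which 85 control nuclei reached, SLC2A1 was seen in 34.6% ± 2.55 of injured nuclei (SD, n = 3) and 3.53% of control nuclei (0.734 to 9.97%), ABCB1 in 33.9% ± 5.01 and 9.41% (4.15 to 17.7%), and ABCG2 in 19.03% ± 5.28 and 5.88% (1.94 to 13.2%). At 1500 UMIs, with 33 control nuclei left, SLC2A1 was at 43.4% ± 3.07 and 9.09% (1.92 to 24.3%). Its gap was wider than without thinning at both depths, and ABCG2 was at 28.1% ± 5.22 and 3.03% (0.0767 to 15.8%) at 1500 UMIs. Of the control nuclei, 26 of 181 lay in the endothelial-like cluster at 500 UMIs, 4 of 85 at 1000 and 1 of 33 at 1500. In the injured replicates 281 of 696, 587 of 1291 and 622 of 1222 did at 1000 UMIs. The depth limits thus changed which control nuclei were compared, and the part of makeup in the wider gap was not tested. Within the endothelial-like clusters at 500 UMIs, SLC2A1 was seen in 55.1%, 51.6% and 49.6% of injured nuclei and in 50.0% of 26 control nuclei (29.9 to 70.1%). MFSD2A there was at 13.4%, 19.5% and 11.2% against 15.4% (4.36 to 34.9%), and ABCB1 at 50.0%, 45.2% and 52.1% against 57.7% (36.9 to 76.6%). ABCG2 was at 21.7%, 21.7% and 29.6% against 42.3% (23.4 to 63.1%), the control share being above all injured ones. The control interval held the share of replicate 3 and lay above those of replicates 1 and 2, whose own intervals (17.4 to 26.5% and 18.7 to 24.997%) overlapped it. For SLC2A1, MFSD2A and ABCB1 the control interval held all 3 injured shares, so no difference was detectable at this depth. CLDN5 was at 75.9%, 70.6% and 72.9% in the injured libraries. A nucleus of these clusters held a UMI of 1.40, 1.38 and 1.43 of the 4 shared members on average in the injured replicates and of 1.65 in the control library.

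**Figure D5:**
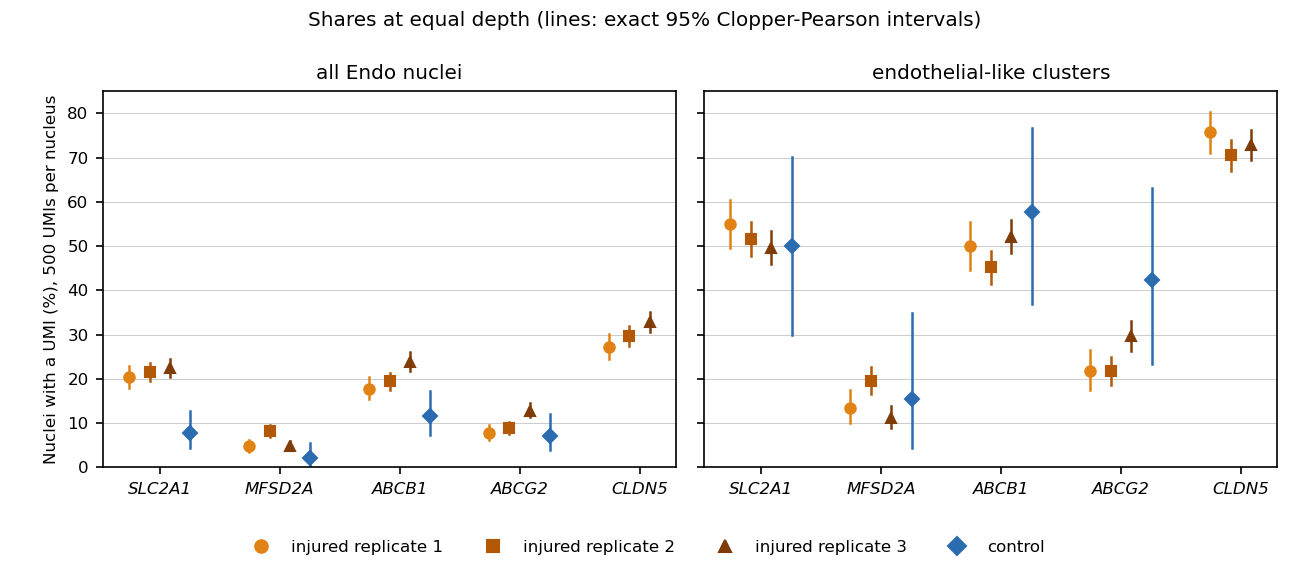
Percentage of nuclei with a UMI of each member after thinning to 500 UMIs per nucleus, for all Endo nuclei and for the endothelial-like clusters, with 1 symbol per library and exact 95% Clopper-Pearson intervals as lines. In the endothelial-like clusters the control interval for SLC2A1, 29.9 to 70.1%, takes in all 3 injured shares.

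In the other cell types no member was called, in 11 tests with over 3 control UMIs. Some of these could not be called at any p, since a call needed a UMI in 10% of nuclei of either cohort. They were SLC2A1, MFSD2A and ABCG2 in excitatory neurons and ABCB1 in astrocytes and oligodendrocytes. Their mean injured shares were 1.33% to 8.39%, and their control shares were lower. The background shares of called genes there were 1.5% in astrocytes, 3.85% in excitatory neurons, 3.41% in inhibitory neurons, 0.774% in oligodendrocytes, 0.0697% in OPC and 0% of 13470 genes in microglia, where 2857 genes had an unadjusted p under 0.05. DESeq2 was run in Endo alone. Of the 11 tests, 6 had an unadjusted p under 0.05 and 5 of these were higher in injured. Among all genes that share was 30% in astrocytes, 40.2% in excitatory neurons, 34.8% in inhibitory neurons, 21.2% in microglia, 30.8% in oligodendrocytes and 19.9% in OPC. SLC2A1 had log2 fold changes of 1.30 in oligodendrocytes (SE 0.34), 0.78 in astrocytes (SE 0.27) and 0.67 in excitatory neurons (SE 0.197), with adjusted p = 0.0533, 0.0950 and 0.0517 by edgeR's quasi-likelihood test, and was above control in 3 of 3 animals in each. MFSD2A in excitatory neurons had 3.71 (SE 1.41, adjusted p = 0.101) from 5 control UMIs. The injured libraries there ran from 1.42 to 7.21 CPM, with replicate 2 highest. ABCG2 in excitatory neurons had 2.11 (SE 0.44, adjusted p = 0.0180) from 9 control UMIs, and ABCB1 there had -0.41 (SE 0.15, adjusted p = 0.0990), below control in 3 of 3 animals.

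Whether a member changed more in Endo than elsewhere was tested as a difference of changes with library as a block, for 11 pairs of member and type with over 3 control UMIs. Over all Endo nuclei, 7 of 11 differences passed an adjusted p of 0.01 by edgeR's quasi-likelihood test. SLC2A1 rose more in Endo than in astrocytes by 2.08 (SE 0.33, adjusted p = 0.000513), than in excitatory neurons by 2.20 (SE 0.26), inhibitory neurons by 2.49 (SE 0.29) and oligodendrocytes by 1.56 (SE 0.32, adjusted p = 0.00501), all as log2. Without the library block the difference from oligodendrocytes was 1.55 and did not pass. ABCB1 differed by 2.59 from astrocytes (SE 0.58, adjusted p = 0.00788), 2.30 from excitatory neurons (SE 0.37) and 2.18 from inhibitory neurons (SE 0.39). Differences that did not pass were 1.96 for ABCB1 against oligodendrocytes and 2.73 for SLC2A1 against OPC. MFSD2A and ABCG2, tested against excitatory neurons alone, did not pass either, at -0.03 and -0.82. The share of all 14772 genes that passed with a larger rise in Endo was 1.92% against astrocytes, 1.42% against excitatory neurons, 1.2% against inhibitory neurons, 1.59% against oligodendrocytes and 0.535% against OPC. With Endo replaced by its endothelial-led nuclei, 0 of the 11 passed and 6 had an unadjusted p under 0.05 (no second tool was run). Of these 6, ABCG2 against excitatory neurons was negative and the others were positive. No share over all genes at that unadjusted p was taken, so the 6 are a description. The SLC2A1 difference from oligodendrocytes fell to 0.02 and that from astrocytes to 0.55. Of all genes, 0.00692% passed with a larger rise in Endo against astrocytes there, 0.0484% against either neuron type, 0.0277% against oligodendrocytes and 0.0138% against OPC. ABCG2 in endothelial-led nuclei changed less than in excitatory neurons by a log2 difference of -2.28 (SE 0.44, adjusted p = 0.0262 by edgeR's quasi-likelihood test), short of the limit. The excitatory neuron side rested on 9 control UMIs and an injured mean of 2.14 CPM. Pooled over injured libraries, ABCG2 per CLDN5 was 0.209 in excitatory neurons and 0.188 in Endo. Whether these UMIs came from the neurons themselves was not tested.

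Within the endothelial-like clusters, the order of the injured animals differed between members. SLC2A1 was at 1725, 1836 and 1669.8 CPM in replicates 1, 2 and 3, a narrow range, whereas MFSD2A was at 310.2, 489 and 268 CPM with replicate 2 highest. ABCB1 was at 1720.1, 1494 and 2100.4 CPM and ABCG2 at 643, 491 and 775 CPM, both lowest in replicate 2 and highest in replicate 3 with counting intervals apart, and CLDN5 was at 3766, 3134 and 3517 CPM. With 1 library per animal, animal and library preparation cannot be told apart.

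Genes most like each member in pattern were found by Pearson's r of log2(CPM + 1) over the 28 sums of library and cell type, among 13926 genes. These sums share libraries and cell types, and depth sets their low values. The Endo sums also mix endothelial-like and fibroblast-like clusters. For these reasons r is a description. SLC16A1, a monocarboxylate carrier, was most like SLC2A1 (r = 0.954), followed by ADGRF5, ROBO4, ATXN7L3B and NGRN (r at least 0.905). ABCB1 was most like SLC39A10, a zinc importer (r = 0.945), followed by SLC5A6, EDNRA, an unnamed gene (ENSCJAG00000014814) and ESYT2. ABCG2 was most like PAQR5 (r = 0.949952), then PELO, ANXA3, VWF and DCN. DCN is a fibroblast marker, and ABCG2 averaged 20.5 CPM in injured cluster 20 against 636 CPM in the injured endothelial-like clusters. MFSD2A was most like SERTAD1 (r = 0.925), then TSPO, PCBD1, ENSCJAG00000013124 and C1R. Between members, r was 0.795 for SLC2A1 with MFSD2A, 0.835 for MFSD2A with ABCG2 and 0.522 for MFSD2A with ABCB1.

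Other barrier genes were read from 5 lists of 88 genes, of which 65 could be tested in Endo and 12 (18.5%) were called against 6.18% of all genes. The lists were chosen with earlier results of these data known, so this share is a description and not independent evidence. Of 23 barrier carriers and pumps, 5 rose and 1 fell, with a median log2 fold change of 0.94 against 0.26 over all genes (0.74 against -0.05 with genes at 0 control UMIs put at their bound). SLC3A2, the heavy chain of amino acid carriers, rose by 2.07 (SE 0.32). The iron exporter SLC40A1 rose by 2.70 (SE 0.42), the transferrin receptor TFRC by 1.63 (SE 0.30) and SLC39A10 by 1.36 (SE 0.26). SLC38A5, a glutamine carrier, was at 237 ± 12.8 CPM (SD, n = 3) against 3 control UMIs, a ratio of 16.2 (exact 95% interval 5.53 to 78.4). ABCC4, an efflux pump of organic anions, fell by 1.55 on the log2 scale (SE 0.24).

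Of 14 tight and adherens junction genes, ESAM, an endothelial adhesion molecule, rose by 2.46 (SE 0.31) and CTNNB1, the cadherin partner beta-catenin, by 1.62 (SE 0.27), while the polarity gene PARD3 fell by 1.21 on the log2 scale (SE 0.22); the list's median was -0.14. Of 6 caveolae and transcytosis genes, CAV1, the coat protein of caveolae, rose by 3.03 (SE 0.55) from 4 control UMIs, with a list median of 0.72. None of 15 Wnt pathway and transcription factor genes was called by edgeR or DESeq2, 6 had an unadjusted p under 0.05 (33.1% of all genes did), and their median was 0.01. Of 7 adhesion molecules, CD34 was at least 14.5-fold higher than the control floor of 3 UMIs and ALCAM fell by 1.88 on the log2 scale (SE 0.31), with a list median of 2.29 (0.94 with genes at 0 control UMIs put at their bound). All 12 calls had an adjusted p below 0.01 by edgeR's quasi-likelihood test. In endothelial-led nuclei 0 of 64 list genes were called by edgeR or DESeq2 and 14 (21.9%) had an unadjusted p under 0.05, against 0.026% and 13.2% of all genes. PECAM1 and CDH5 of the junction list were also among the endothelial markers that chose these nuclei. Of 15 list genes with 10 or more control UMIs, 15 had a lower injured mean CPM and 12 a negative log2 fold change with TMM factors. Of 32 with 1 to 9 control UMIs, 17 and 10 did. Groups set by control counts favour higher control values and no share over all genes was taken, so these counts are a description. Of the 12 genes called over all Endo nuclei, ESAM had a log2 fold change in endothelial-led nuclei of 1.04 with TMM factors and 0.34 without, and ABCC4 had -0.70 and -1.41. CTNNB1 had 0.42 and TFRC 0.02 with TMM factors, and both were negative without them, at -0.29 and -0.69. SLC39A10 (-0.24 with, -0.94 without) and PARD3 (0.99 and 0.28) had the opposite sign to that over all Endo nuclei, where they were at 1.36 and -1.21. SLC40A1 was at 388 ± 54.4 CPM (SD, n = 3) against 3 control UMIs, a pooled ratio of 2.80 (exact 95% interval 0.959 to 13.6), and its log2 fold change was 2.22 with TMM factors and 1.51 without, against 2.70 over all Endo nuclei. In the 27 control nuclei SLC38A5, CD34, SLC3A2 and CAV1 had 0 UMIs, and the injured means were at least 2.92-fold, 2.74-fold, 1.76-fold and 1.51-fold higher than a floor of 3 UMIs. ALCAM had 0 control UMIs as well, with an injured mean under the floor, whereas all control Endo nuclei held 223 of its UMIs. Between the fibroblast-like clusters, the log2 fold changes of the genes that fell were -0.20 for ALCAM, -0.39 for PARD3 and -0.78 for ABCC4. The part of makeup in their changes over all Endo nuclei was not tested.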

How the data were processed

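Nuclei were profiled by droplet snRNAseq in 3 injured libraries (1 animal each) and 1 control library (3 animals pooled). Per the labels and methods, the authors counted UMIs with Cell Ranger 3.1.0 on calJac3 with Ensembl gene models, removed doublets with Scrublet in the injured cohort and by a limit on genes per nucleus in the control cohort, clustered each cohort separately with Seurat and named the clusters. The values the authors deposited are UMI counts for every gene and nucleus, without normalization. The deposited control table still holds nuclei above the 2500 genes of that limit, as 4437 of its 5402 ExN and 819 of its 1011 InN nuclei lay at or below it. Deposited UMI totals matched the tables for all nuclei, and every nucleus was used.

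UMIs were summed per library and cell type. Genes in both tables were compared with edgeR 4.0.16 in R 4.3.3 (TMM, filterByExpr, glmQLFit, glmQLFTest, Benjamini-Hochberg over all genes tested), a call having the limits given above, and DESeq2 1.42.0 was an alternative. The sums of all types were fitted with library as a block for differences of change. An SE given with edgeR was derived from its test, as the absolute log2 value divided by the square root of the F statistic. Shares have Clopper-Pearson and CPM exact Poisson 95% intervals, which cover counting error only. Thinning drew 500, 1000 or 1500 UMIs per nucleus without replacement. CLDN5 was matched through its Ensembl identifier. Steps were tested on simulated counts. No doublet caller was run here. The members and gene lists were chosen with earlier results of these data known. Text names every member, list genes called over all Endo nuclei, and the 5 genes most like each member. It also names leading genes of the Endo clusters and the list genes shared with the endothelial markers.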

Additional observations from a re-analysis of the deposited data

Results flagged for a closer look

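The changes of SLC2A1 and ABCB1 in Endo differed from their changes in other cell types by the test of the difference itself (edgeR quasi-likelihood with library as a block, adjusted p below 0.01). As log2 change in Endo minus log2 change in the other type, SLC2A1 gave 2.08 against astrocytes, 2.20 against excitatory neurons, 2.49 against inhibitory neurons and 1.56 against oligodendrocytes. The last of these did not pass without the library block. ABCB1 gave 2.59 against astrocytes, 2.30 against excitatory neurons and 2.18 against inhibitory neurons. Beside these values, 14.4% of control Endo nuclei and 39.0% of injured ones lay in endothelial-like clusters, and with only endothelial-led nuclei in the Endo sums the 7 differences were 0.55, 0.62, 0.92 and 0.02 for SLC2A1 and 1.30, 0.96 and 0.85 for ABCB1, none with an adjusted p below 0.01. Over all Endo nuclei, ABCB1 against oligodendrocytes (1.96) and SLC2A1 against OPC (2.73) did not pass. Nor did MFSD2A (-0.03) and ABCG2 (-0.82), which were tested against excitatory neurons alone. Groups of 3 libraries were not searched for outlying samples.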

How the results depend on the processing

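No paired analysis was possible because the control cohort is 1 pooled library and the labels give the injured animals no number shared with it. Alternatives on endothelial-like or fibroblast-like clusters, and combinations with endothelial-led nuclei, were chosen after seeing the data. The count of genes called in Endo (816) became 473 at 1000 UMIs per nucleus, 3 in endothelial-led nuclei, 1802 at an adjusted p limit of 0.05, 3 in endothelial-like clusters, 11 in fibroblast-like clusters, and, in endothelial-led nuclei, 2 by library size alone and 12 by DESeq2. Leaving out 1 injured animal gave 513 to 1583 calls over all Endo nuclei (513, 1583 and 1429 without replicates 1, 2 and 3) and 0, 145 and 111 in endothelial-led nuclei.

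SLC2A1 kept its call in Endo except in subsets of nuclei, with log2 fold changes of 1.15 in endothelial-led nuclei, 1.18 in endothelial-like and 2.05 in fibroblast-like clusters, and in endothelial-led nuclei 0.44 by library size alone, 1.07 by DESeq2 and 1.12, 0.98 and 1.08 without replicates 1, 2 and 3. MFSD2A, not called, was called by DESeq2 (3.37), with no filter on low counts (3.45), at a limit of 0.05 (3.41) and without replicate 2 or 3 (3.01 and 3.54), the range over animals left out being 3.01 to 3.57. ABCB1 lost its call by library size alone (1.76), at 1000 UMIs (1.80), at up to 2500 genes (1.56), in endothelial-led nuclei (0.43), in endothelial-like (0.43) and fibroblast-like clusters (0.32), and in endothelial-led nuclei by DESeq2 (0.35) or without replicates 1, 2 and 3 (0.40, 0.43 and 0.19). It changed direction in endothelial-led nuclei by library size alone (-0.28). ABCG2 was called at a limit of 0.05 (1.24) and without replicate 2 (1.33; range over animals left out 0.99 to 1.33), and changed direction, without a call, in endothelial-led nuclei (-0.34), endothelial-like (-0.33) and fibroblast-like clusters (-0.083), and in endothelial-led nuclei by library size alone (-1.04), by DESeq2 (-0.42) and without replicates 1, 2 and 3 (-0.39, -0.29 and -0.61). Elsewhere ABCB1 in oligodendrocytes changed direction at 1000 UMIs (0.56) and SLC2A1 in OPC by library size alone (-0.066), both uncalled. Without the library block the SLC2A1 difference between Endo and oligodendrocytes (1.55) lost its call; in endothelial-led nuclei the 7 called differences lost theirs, at 0.55, 0.62, 0.92 and 0.018 for SLC2A1 and 1.30, 0.96 and 0.85 for ABCB1. The causes were not tested.

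The mean injured share of Endo nuclei with a UMI moved with depth. At 500 UMIs it was 21.4% for SLC2A1, 5.95% for MFSD2A, 20.4% for ABCB1, 9.84% for ABCG2 and 29.9% for CLDN5. At 1000 UMIs it was 12.6% for MFSD2A and 19.03% for ABCG2, and at 1500 UMIs 43.4% for SLC2A1, 43.8% for ABCB1 and 48.2% for CLDN5. In endothelial-led nuclei it was 72.3%, 41.0%, 70.0%, 54.7% and 77.1% for the 5 members in that order, in endothelial-like clusters 86.0%, 47.7%, 81.3%, 63.8% and 91.5%, and there at 500 UMIs 52.1% for SLC2A1, 14.7% for MFSD2A, 49.1% for ABCB1 and 73.1% for CLDN5. Pooled nuclei in place of a mean over libraries moved none of the 35 levels beyond 1 SD. The 27 endothelial-led control nuclei set the depth of every comparison within them.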
